A study of Homo sapiens with 2 samples.

Results

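METTL4 and 9 other genes of adenine methylation were examined for H4K5ac, the acetylation of histone H4 at lysine 5, which marks active chromatin. The 10 genes were taken by RefSeq symbol, whatever their values, out of the 19974 protein-coding genes that RefSeq places on the autosomes and X. They are METTL4, METTL3, METTL14, METTL16, N6AMT1, ALKBH1, ALKBH5, FTO, WTAP and ZC3H13. RefSeq lists N6AMT1 under the symbol HEMK2 (gene ID 29104), and the other 9 matched directly. A gene window was the gene span plus 10 kb on either side, and a start window was the 1000 bp on either side of the start of transcription. The 10 gene windows held 86 of 120033 normoxia peaks and 169 of 258195 hypoxia peaks.

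The peaks came from chromatin immunoprecipitation and sequencing (ChIP-seq) in FaDu cells, an established line of head and neck cancer. Of the 2 libraries, 1 was from cells in normoxia, whose oxygen level the labels do not state, and the other from cells held in 1% oxygen for 18 h. The sample labels name H4K5ac as the target and the series design text names H3K4Ac, and the name in the sample labels is used here. The culture protocol mentions lentiviral knockdown of METTL4, but neither library is labelled as a knockdown. With 1 library per condition there is no replicate check of any difference, and no test of the condition was possible.

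N6-methyladenosine is the most common internal modification of messenger RNA and influences its splicing, export, translation and decay. METTL3 is the catalytic subunit of the complex that writes it, METTL14 binds the RNA beside METTL3, and WTAP and ZC3H13 hold the complex together in the nucleus. METTL16 is a separate RNA methyltransferase that acts on a spliceosomal small nuclear RNA and on the transcript of MAT2A, the enzyme that makes the methyl donor. METTL4 methylates an adenosine of a spliceosomal small nuclear RNA, and it and N6AMT1 have been reported as writers of N6-methyladenine in DNA. ALKBH5 and FTO remove methyl groups from RNA adenines, and ALKBH1 acts on transfer RNA and has been reported to act on DNA. These erasers use molecular oxygen as a substrate.

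The hypoxia list was the longer list, with 99.9 Mb under its peaks against 59.2 Mb in normoxia. The lowest local background was 3.24 reads in hypoxia and 3.13 in normoxia, and the narrowest peaks were 215 and 245 bp wide. Of 10 epithelial markers, both squamous (such as KRT5 and TP63) and general (such as KRT8, EPCAM and CDH1), 9 had a peak at the gene start or at a gene end in both libraries, and TP63 had none at the RefSeq start used. Of 10 markers of other lineages, 6 had none in either library, CD3E and PECAM1 had 1 in hypoxia alone, and MYOD1 and COL1A1 had 1 in both.

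Each of the 10 genes carried H4K5ac at its start in both libraries, and for each gene the normoxia and hypoxia peaks overlapped. Over the 15813 protein-coding genes with a start in the RefSeq promoter table, 71.7% had a start peak in both libraries. A peak is called strong here where its −log10 q-value reached 10. Start peaks were strong in both libraries for all 10 genes, against 63.2% of these genes. In 6 of the 10 genes another gene starts within 1000 bp upstream on the other strand, an arrangement found at 22.1% of starts. A peak over such a pair of starts cannot be assigned to either gene. The pairs are METTL4 with NDC80, ALKBH1 with SLIRP, METTL14 with METTL14-DT, ZC3H13 with CPB2-AS1, WTAP with an alternative start of SOD2, and FTO with RPGRIP1L.

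For METTL4, ALKBH1 and METTL14 the start peak of each library spans both starts, and the bases that separate the 2 starts are printed here to show how close they are. Each is read 5′ to 3′ on the strand of the named gene and ends at the base before its start, from RefSeq on GRCh38.p14. The METTL4 bases lie at chr18:2571506-2571556, those of ALKBH1 at chr14:77708024-77708070 and those of METTL14 at chr4:118685342-118685391.
METTL4: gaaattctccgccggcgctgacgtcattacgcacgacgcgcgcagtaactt
ALKBH1: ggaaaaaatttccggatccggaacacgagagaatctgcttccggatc
METTL14: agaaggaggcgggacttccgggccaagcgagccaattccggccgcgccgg
The 51 bases between METTL4 and NDC80 hold 9 CG pairs, the 47 bases of ALKBH1 hold 4, and the 50 bases of METTL14 hold 7.

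In METTL3 and METTL16 the called peaks were instead split by a gap just before the start, with a peak on either side in each library. FTO was likewise split just before its start and ALKBH5 across its start in each library, and their bases are not printed. The 250 bases before each start are shown because the gap falls within them. Capitals in METTL3 (chr14:21511341-21511590, minus strand) mark the 121 bases at 21511349-21511469 that lie between its hypoxia peaks. Capitals in METTL16 (chr17:2511889-2512138, minus strand) mark the 111 bases at 2511938-2512048 between its normoxia peaks, and in hypoxia the gap was 30 bases, at 2511954-2511983.
METTL3: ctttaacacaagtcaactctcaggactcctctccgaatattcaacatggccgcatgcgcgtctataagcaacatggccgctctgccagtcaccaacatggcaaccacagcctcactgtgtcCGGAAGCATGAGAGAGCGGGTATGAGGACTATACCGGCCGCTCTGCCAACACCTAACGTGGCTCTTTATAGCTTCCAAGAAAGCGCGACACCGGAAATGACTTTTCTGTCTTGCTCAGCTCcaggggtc
METTL16: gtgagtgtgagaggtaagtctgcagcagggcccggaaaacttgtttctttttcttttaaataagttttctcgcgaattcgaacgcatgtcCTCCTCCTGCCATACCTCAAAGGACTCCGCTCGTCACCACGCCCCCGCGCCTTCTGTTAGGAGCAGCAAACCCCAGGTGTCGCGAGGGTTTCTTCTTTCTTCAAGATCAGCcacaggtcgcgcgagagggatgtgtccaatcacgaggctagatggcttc
The hypoxia gap of METTL3 holds the letters ACGTG, a core of the hypoxia response element, at 21511410-21511414. The normoxia gap of METTL3 was only 6 bases, at 21511430-21511435, so these letters lay under its gene-side normoxia peak. The normoxia gap of METTL16 holds the other core, GCGTG, on the opposite strand at 2512007-2512011, and its hypoxia gap holds neither. At FTO the bases at 53703906-53704205, which cover the gaps of both libraries, hold neither core. At ALKBH5 the bases at 18183578-18183877, inside the gaps, hold GCGTG 4 times.

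At METTL4, on the minus strand of chromosome 18 (span 2537530-2571505), 1 peak covered the start in each library. The normoxia peak (chr18:2570783-2572147) was 1365 bp wide and the hypoxia peak (chr18:2570836-2572003) 1168 bp. At the summit 133 reads overlapped in normoxia (95% exact Poisson interval 111 to 158) and 175 in hypoxia (150 to 203). This number, the summit pileup, was derived from the deposited fold and p-value, its intervals cover counting error only, and it depends on the depth and the fragment length of each library. The hypoxia value was 1.32 times the normoxia value, and the intervals overlapped. The deposited fold enrichment at the summit was 8.87 in normoxia and 14.6 in hypoxia, each a value of its own list. The summits lay 208 and 138 bp into METTL4, away from NDC80, which encodes a kinetochore protein.

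The METTL4 ratio has to be read against the other genes, because start pileups were higher in the hypoxia library nearly everywhere. Among 10406 protein-coding genes with overlapping start peaks, 93.0% had the higher pileup in hypoxia, with a median ratio of 1.43 and quartiles of 1.24 and 1.66. The ratio of METTL4 was at percentile 35.1 of that distribution, the percent of genes with a ratio no higher. Local background at these starts had a median hypoxia to normoxia ratio of 1.07, and at METTL4 it was 0.786.

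Of the 10 genes, 9 had a higher start pileup in hypoxia, and METTL14 did not. The median ratio of the 10 was 1.17, and 8 of the 10 were below the median of all genes. The local background ratio was also below its all-gene median in 8 of the 10, from 0.695 in ZC3H13 upward, and its part in the pileup ratios was not tested. N6AMT1 and WTAP were the members with a pileup ratio above the median. Their counting intervals also did not overlap between the libraries, and those of the other members did. The all-gene share of such intervals was not computed, and 93.0% of the genes compared had the higher start pileup in hypoxia. The deposited fold at the strongest start peak, unlike the pileup, was higher in hypoxia in all 10 genes. No all-gene share of this is given here.

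**Figure D1:**
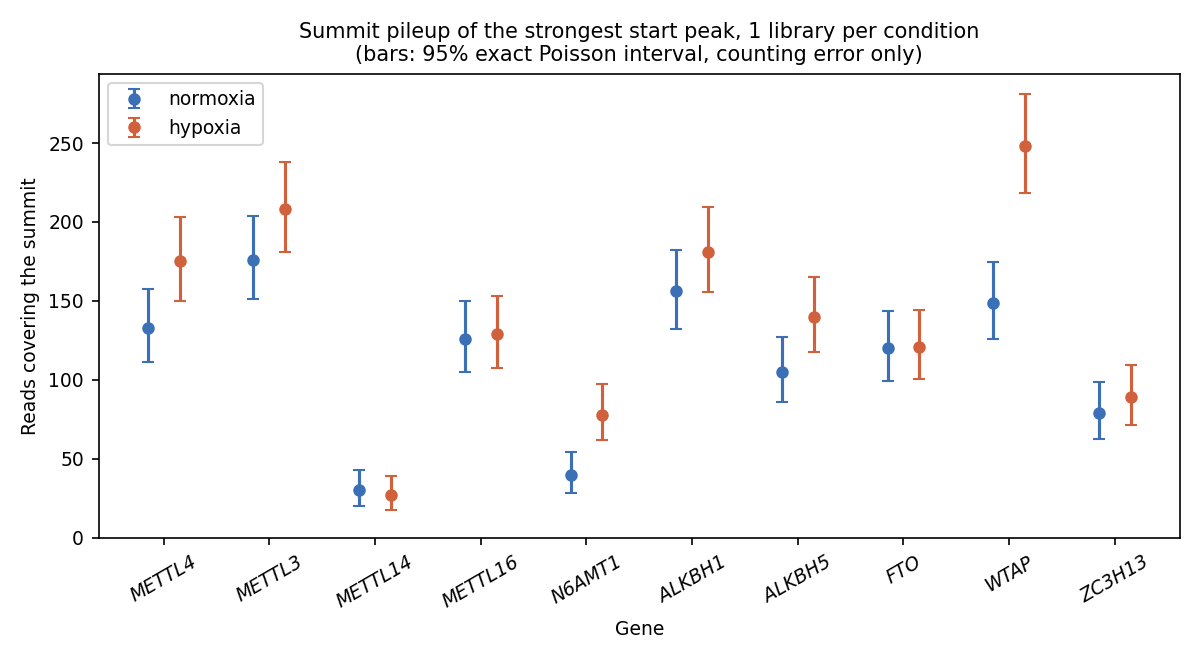
Reads covering the summit of the strongest start peak of each gene in normoxia and hypoxia, 1 library each, with 95% exact Poisson intervals as bars. The intervals of N6AMT1 (40 and 78 reads) and WTAP (149 and 248 reads) do not overlap, and METTL14 is lowest with 30 and 27 reads.

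METTL3, the catalytic writer, had its strongest start peak upstream of the start, beyond the gap shown above. The summit of that peak held 176 reads in normoxia (151 to 204, chr14:21511436-21512226) and 208 in hypoxia (181 to 238, chr14:21511470-21512146), a ratio of 1.18. The peak on the gene side held 142 reads in normoxia (chr14:21510622-21511429) and 145 in hypoxia (chr14:21510660-21511348). Both pairs were thus below the all-gene median ratio, and the gene-side pair was nearly equal.

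METTL14, the RNA-binding partner of METTL3, had the fewest reads at its start summit of the 10 in both libraries. Its summit held 30 reads in normoxia (20.2 to 42.8, chr4:118684887-118685801) and 27 in hypoxia (17.8 to 39.3, chr4:118684913-118685876). The ratio of 0.90, at percentile 3.46 of all genes, was the lowest of the members, and the intervals overlapped almost completely. The deposited fold at this start was 5.39 in normoxia and 6.28 in hypoxia. The hypoxia peak was the wider at 964 bp, against 915 bp.

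METTL16 had almost equal summit pileups, and its hypoxia peak was the narrower. On the gene side 126 reads covered the normoxia summit (105 to 150, chr17:2511010-2511937) and 129 the hypoxia summit (108 to 153, chr17:2511396-2511953). The ratio was 1.02, at percentile 7.77, and the width was 928 bp in normoxia and 558 bp in hypoxia. The deposited fold was 8.54 in normoxia and 9.78 in hypoxia. The peak upstream of the gap held 50 reads in normoxia (chr17:2512049-2512564) and 72 in hypoxia (chr17:2511984-2512575), so the 2 sides of the gap had unequal ratios.

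N6AMT1, a methyltransferase that also modifies the translation release factor, had the highest ratio of the members. Its summit held 40 reads in normoxia (28.6 to 54.5, chr21:28884900-28885518) and 78 in hypoxia (61.7 to 97.3, chr21:28884989-28885550). The ratio of 1.95 was at percentile 90.9 of all genes, and no start of another gene lies within the 1000 bp upstream in the RefSeq table used. Its local background was 3.13 reads in normoxia and 3.85 in hypoxia, a ratio of 1.23. The normoxia value is the lowest background in that list, so this ratio rests on a value at the bottom of its range.

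The 3 erasers had ratios below the median of all genes. ALKBH1 had 156 reads at the summit in normoxia (132 to 182, chr14:77707418-77708917) and 181 in hypoxia (156 to 209, chr14:77707554-77708576), a ratio of 1.16 under a peak shared with SLIRP, an RNA-binding protein of mitochondria. ALKBH5 had 105 reads in normoxia (85.9 to 127, chr17:18182592-18183342) and 140 in hypoxia (118 to 165, chr17:18182514-18183372) at a summit upstream of the start. The ratio at ALKBH5 was 1.33, and the peak on the gene side, with 82 and 108 reads, had a like ratio of 1.32.

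For FTO the strongest start peak lay on the side of RPGRIP1L, a gene of the ciliary transition zone. The summit of that peak held 120 reads in normoxia (99.5 to 143, chr16:53702947-53703950) and 121 in hypoxia (100.4 to 145, chr16:53703440-53703925), both within the RPGRIP1L span. This 1004 bp normoxia peak was overlapped by 2 hypoxia peaks, of 346 and 486 bp. The peak on the FTO side held 57 reads in normoxia (chr16:53704140-53704625) and 53 in hypoxia (chr16:53704120-53704594). Pileups on both sides of the FTO start were thus nearly equal between the libraries. At the strongest peak the local background was 11.9 reads in normoxia and 8.34 in hypoxia, and the deposited fold was 9.36 and 13.1.

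Among the accessory subunits WTAP and ZC3H13 the ratios were unlike. WTAP had 149 reads at the summit in normoxia (126 to 175, chr6:159726333-159728159) and 248 in hypoxia (218 to 281, chr6:159726631-159728081), a ratio of 1.66 at percentile 75.4 of all genes. The peak covers 2 WTAP starts and the alternative SOD2 start between them, and SOD2 encodes the mitochondrial superoxide dismutase. Its summits lay 548 bp apart in the 2 libraries. ZC3H13 had 79 reads in normoxia (62.5 to 98.5, chr13:46052129-46052814) and 89 in hypoxia (71.5 to 109.5, chr13:46052189-46052796), a ratio of 1.13. A further normoxia start peak of ZC3H13, on the side of CPB2-AS1 (chr13:46052856-46053244, fold 3.26), had no hypoxia counterpart.

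Start peaks were narrower in hypoxia in 8 of the 10 genes, all but METTL14 and ALKBH5, and in 69.7% of the 10406 genes. The median ratio of widths was 0.856 for the members and 0.908 for all these genes. FTO had the lowest width ratio, at 0.484, and ALKBH5 the highest, at 1.14. The FTO ratio sets 1 hypoxia peak of 486 bp against a normoxia peak of 1004 bp. That normoxia peak was overlapped by 2 hypoxia peaks, so the low ratio includes a split of the call. Summits lay downstream of the start in both libraries in 7 of the 10 genes, against 64.3% of all genes, and METTL3, ALKBH5 and FTO were the others. The median summit position of the members was 186.5 bp into the gene in normoxia and 132 bp in hypoxia, and over all genes it was 178 and 161 bp.

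**Figure D2:**
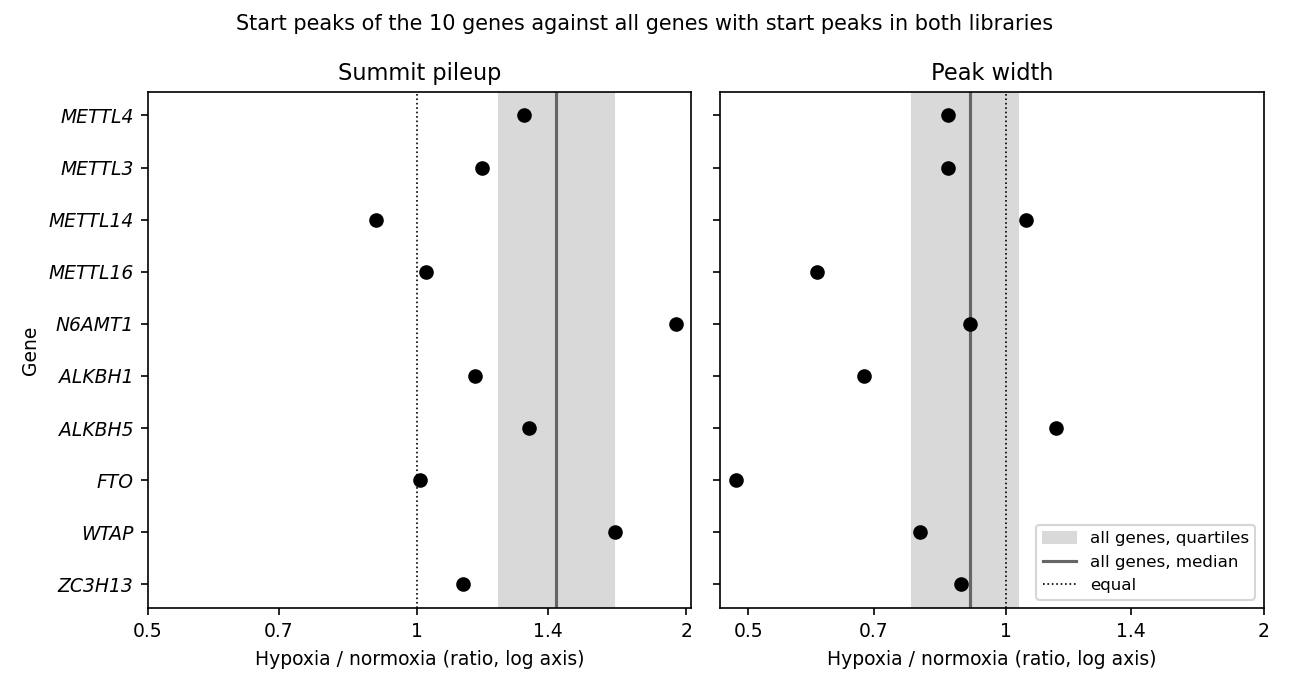
Hypoxia to normoxia ratio of the summit pileup (left) and of the width (right) of the strongest start peak of each gene on log axes, beside the median (line) and quartiles (grey band) of 10406 genes. In the left panel 8 of the 10 points lie left of the all-gene median of 1.43, N6AMT1 and WTAP lie right of it, and METTL14 lies left of 1.

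Over the whole gene windows, all 10 genes had more hypoxia than normoxia peaks, and so did 79.0% of all protein-coding genes. That this held in all 10 genes depended on the weak hypoxia peaks. With the strongest 120033 hypoxia peaks alone, matching the normoxia list in length, the windows held 86 normoxia and 83 hypoxia peaks. Then 5 of the 10 genes had more in hypoxia. This cut keeps every weak normoxia peak, so the lists have unlike thresholds. With strong peaks alone in both lists the windows held 22 normoxia and 32 hypoxia peaks. Then 4 of the 10 genes had more in hypoxia, N6AMT1 had fewer, and the rest had equal numbers. All-gene shares are not given for either cut. As deposited, the totals of 86 and 169 peaks give a ratio of 1.97, close to the 2.04 over all such windows. Covered length was 41703 bp in normoxia and 60128 bp in hypoxia, a ratio of 1.44 against 1.56 over all windows. FTO and METTL16 supplied 56 of the 86 normoxia and 111 of the 169 hypoxia peaks. The other 8 genes had 30 and 58, a ratio of 1.93.

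**Figure D3:**
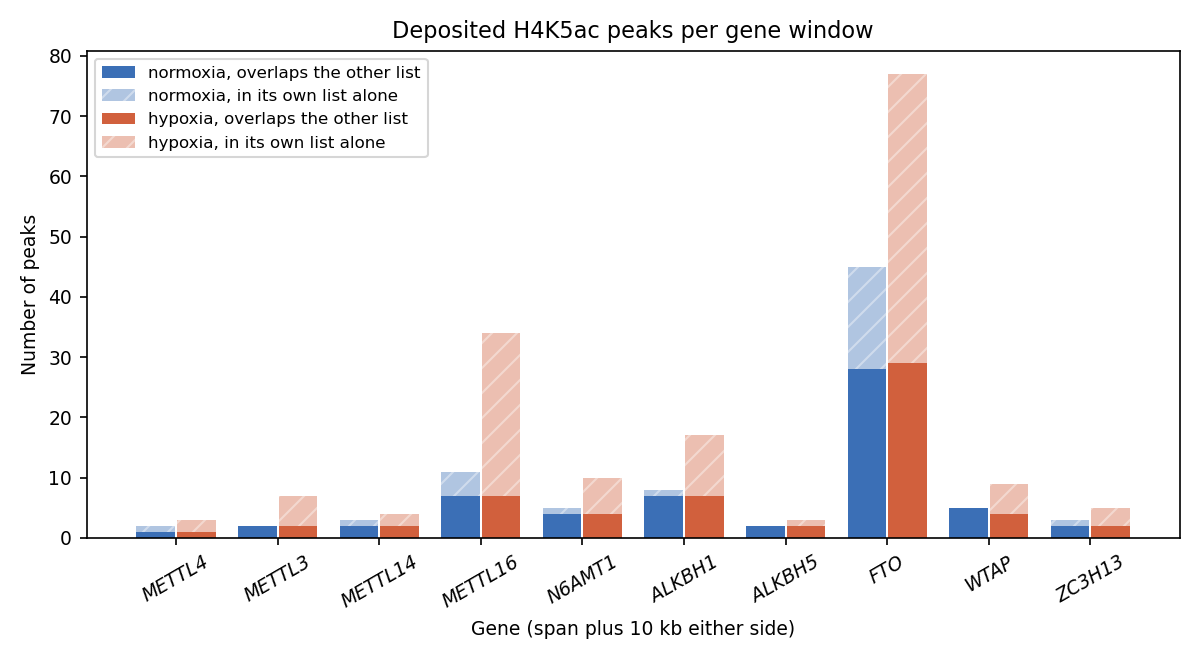
Number of deposited peaks in each gene window per library, split into peaks that overlap the other list by at least 1 bp (solid) and peaks of 1 list alone (hatched). The solid parts are nearly equal in height, and hatched hypoxia peaks make up most of the difference, with 48 in FTO and 27 in METTL16.

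Peaks at the starts were mostly shared, and hypoxia peaks elsewhere were mostly not. Of 15 normoxia start peaks 14 overlapped a hypoxia peak, and of 15 hypoxia start peaks all 15 overlapped a normoxia peak. Away from the starts, 46 of 71 normoxia peaks (64.8%) and 45 of 154 hypoxia peaks (29.2%) overlapped the other list. Altogether 69.8% of the normoxia peaks (95% exact Clopper-Pearson interval 58.9 to 79.2%) and 35.5% of the hypoxia peaks (28.3 to 43.2%) were overlapped. Over all protein-coding windows these shares were 71.1% and 35.7%, within both intervals. The intervals take peaks as independent, but FTO and METTL16 supplied 56 of the normoxia and 111 of the hypoxia peaks. Peaks of the same gene share their locus, so the intervals may be too narrow. Without FTO and METTL16, the shares were 83.3% of 30 normoxia and 41.4% of 58 hypoxia peaks, so closeness to the all-window shares depended on these genes. At equal list length 54.7% of normoxia and 56.6% of hypoxia peaks in the 10 windows were overlapped, so the order of the 2 shares turned. Only the hypoxia list was cut for this.

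Peaks present in 1 list alone were by their medians narrower and weaker than shared ones, with 2 strong exceptions, in FTO and ALKBH1, given with those genes. The median width of hypoxia peaks without overlap was 258 bp, against 418.5 bp for overlapped ones, and in normoxia the medians were 296 and 470 bp. Their median −log10 q-value was 4.15 in hypoxia and 3.28 in normoxia. Absence from a list means only that no peak was called there, and it does not show that no reads were present.

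METTL4 had 2 normoxia and 3 hypoxia peaks in its window, covering 1682 and 1635 bp. Apart from the start peak, normoxia had 1 peak within NDC80 (chr18:2579438-2579754, fold 3.01). Hypoxia had 1 peak inside METTL4 (chr18:2565810-2566024) and 1 beyond its end (chr18:2530304-2530555), each with a fold of 3.77 and 15 reads at the summit. None of these 3 overlapped the other list. At equal list length METTL4 had 2 normoxia peaks and 1 hypoxia peak. That cut dropped the hypoxia peaks with a −log10 q-value of 4.50 and kept the normoxia peak with 3.07.

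METTL3 had 2 normoxia and 7 hypoxia peaks, and METTL16 had 11 and 34. These were the members with at least 3 times as many hypoxia as normoxia peaks, a ratio reached by 20.1% of genes with a normoxia peak. All 5 additional METTL3 peaks lacked a normoxia counterpart, and 4 of them lay in the downstream flank within TOX4, a chromatin protein gene. In METTL16 the 27 hypoxia peaks without a counterpart lay along the gene body. Their folds ran from 2.44 to 4.21, and their highest −log10 q-value was 8.28, so none was strong. METTL16 also had 4 normoxia peaks with no hypoxia counterpart, all within the gene.

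The other members had lower ratios of hypoxia to normoxia peaks. METTL14 had 3 normoxia and 4 hypoxia peaks, including a shared peak beyond its end with 21 reads in normoxia (chr4:118718545-118718966) and 23 in hypoxia (chr4:118718458-118718853). N6AMT1, with a RefSeq span of 309770 bp, had 5 and 10 peaks. Away from its start the 3 shared N6AMT1 pairs all had fewer reads in hypoxia, with ratios of 0.46, 0.583 and 0.611, opposite in direction to its start. The largest of these pairs held 50 reads in normoxia (chr21:28633367-28634075) and 23 in hypoxia (chr21:28633717-28633994).

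ALKBH1 had 8 normoxia and 17 hypoxia peaks, and ALKBH5 had 2 and 3. ALKBH1 held the only strong hypoxia peak of the 10 windows that no normoxia peak overlapped, whereas 15.6% of all windows held at least 1. It was 339 bp wide (chr14:77686525-77686863), lay 21.4 kb into the gene, and had 34 reads at the summit and a fold of 4.37. Its −log10 q-value of 11.1 was just past the threshold of 10. In ALKBH5 the single added peak (chr17:18194192-18194411) had a fold of 2.99.

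WTAP had 5 normoxia and 9 hypoxia peaks, and ZC3H13 had 3 and 5. Beyond the end of WTAP, 2 normoxia peaks with 43 and 32 reads (chr6:159761390-159761893 and chr6:159762014-159762884) lay under 1 hypoxia peak of 1619 bp with 62 reads (chr6:159761248-159762866). That region holds the high-coordinate end of SOD2 and the low-coordinate end of ACAT2, an enzyme of acetoacetyl-CoA metabolism, so the peaks cannot be assigned to WTAP. The 3 hypoxia peaks of ZC3H13 without a counterpart held 12, 12 and 15 reads.

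FTO, with a span of 417979 bp, had 45 normoxia and 77 hypoxia peaks, spread over its length. Of these, 28 normoxia and 29 hypoxia peaks overlapped the other list. Enhancers inside FTO are known to act on the distant genes IRX3 and IRX5, and exons and introns were not distinguished here. The strongest peak by fold away from the start lay 337.8 kb into the gene, just past FTO-IT1, a long noncoding RNA gene. Its summit held 45 reads in normoxia (chr16:54041389-54042258, fold 10.7) and 52 in hypoxia (chr16:54041610-54042164, fold 12.5), so it was prominent in both lists.

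The shared peaks of FTO differed in both directions. Among 25 one-to-one pairs away from any start in the RefSeq promoter table, the hypoxia pileup was higher in 16, lower in 7 and equal in 2. The median ratio was 1.17. The highest ratio was 2.75, from 16 reads in normoxia (chr16:53732110-53732357) to 44 in hypoxia (chr16:53731643-53732306). At the low end, 32 reads in normoxia (chr16:53792331-53792763) stood against 14 in hypoxia (chr16:53792318-53792600).

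FTO also held the only strong normoxia peak of the 10 windows without a hypoxia counterpart, a kind of peak found in 2.02% of all windows. That share takes windows of any length, and the long FTO window held 6 of the 22 strong normoxia peaks. Counted by peak, 21 of these 22 were overlapped, against 98.5% of strong normoxia peaks in all protein-coding windows. The FTO peak was 543 bp wide (chr16:53768824-53769366), 64.9 kb into the gene, with 53 reads and a fold of 4.87. Its −log10 q-value was 18.7. The peak lies just upstream of the start of LOC124903691, a long noncoding RNA on the minus strand that begins at 53768727. On the other side of that start a peak was shared, with 36 reads in normoxia (chr16:53768116-53768708) and 37 in hypoxia (chr16:53768268-53768662). The acetylated region at that start thus had peaks on both flanks in normoxia and on 1 flank in hypoxia.

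**Figure D4:**
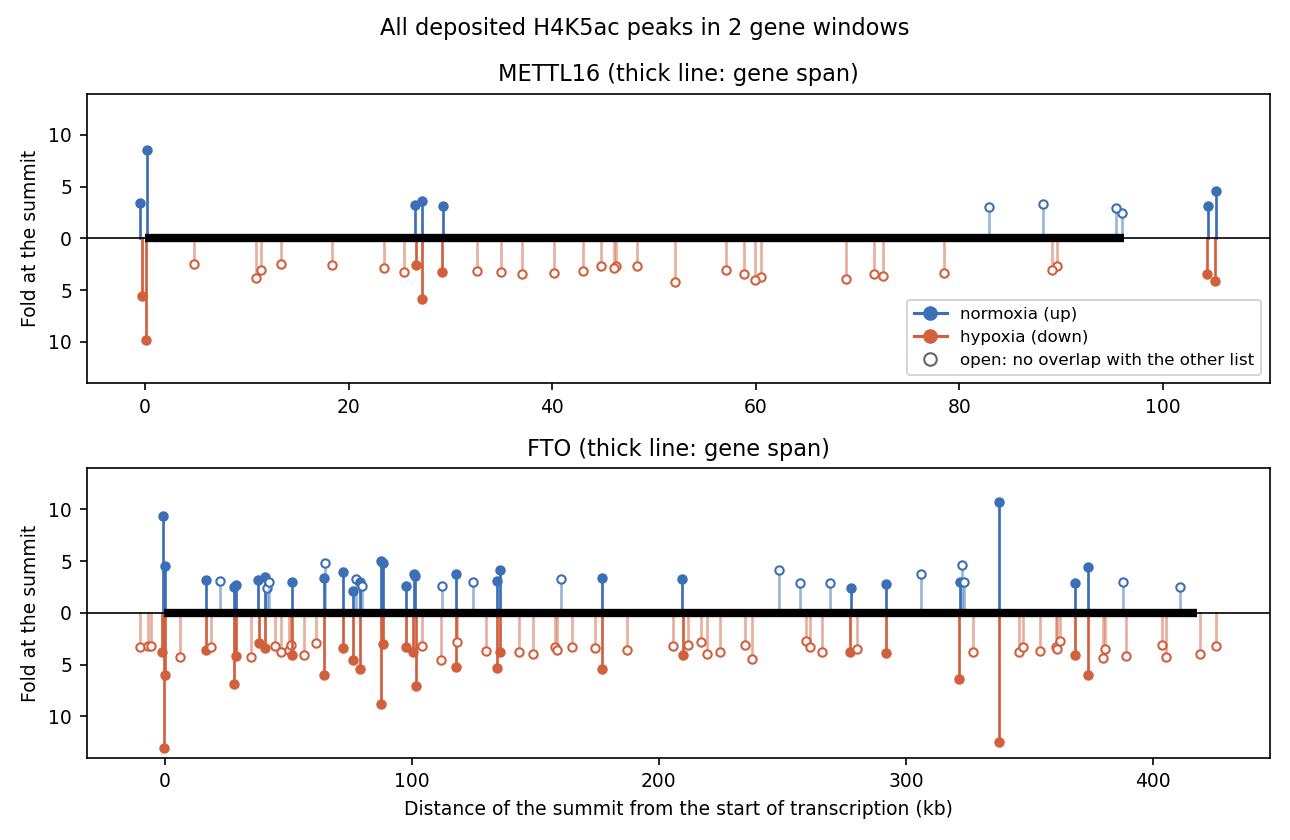
Summits of all deposited peaks in the METTL16 and FTO windows against distance from the start in kb, with normoxia fold upward and hypoxia fold downward; filled points overlap the other list and open points do not. Open hypoxia points fill the METTL16 gene body at folds of 2.44 to 4.21, and the tallest distal FTO peak, 337.8 kb from the start, is filled in both directions.

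Away from any start in the RefSeq promoter table, higher and lower pileups in hypoxia were closer to equal in number than over the genome. Of 43 one-to-one pairs in the 10 windows, 22 were higher in hypoxia, 16 lower and 5 equal, with a median ratio of 1.05. Over all 55509 such pairs the median was 1.23, and 69.2% were higher. FTO supplied 25 of the 43 pairs, and the 5 METTL16 pairs had a median of 0.813. That median is the ratio of the pair whose normoxia peak is at chr17:2406135-2407092. The peak covers an end of LOC284009, a long noncoding RNA gene without a start in that table, so this pair may lie at a start. Pairs of 1 gene share their locus, so they are not independent.

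The wider set of adenine methylation genes, 22 further writers, readers and methyl donor enzymes, was also marked in both libraries throughout. Over all genes with a known start, 71.7% were. Of the 22 genes, 19 were placed by their start and 3 (VIRMA, YTHDF3 and IGF2BP1) by either gene end. Hypoxia peaks outnumbered normoxia peaks in 18 windows, were fewer in 2 and equal in 2, with 153 and 254 peaks in all. Over all protein-coding windows hypoxia peaks were more numerous in 79.0%. Among the 19 placed by start, the start pileup was higher in hypoxia in 19, as in 93.0% of all genes with overlapping start peaks. The median ratio was 1.44, beside 1.43 for all genes and 1.17 for the 10 members. The ratio ran from 1.10 in METTL5, a ribosomal RNA methyltransferase, to 1.80 in MAT2B, the regulatory subunit of the methyl donor synthase. At gene ends that may not be starts, VIRMA had a ratio of 0.742, YTHDF3 1.51 and IGF2BP1 1.89.

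Within that wider set the most hypoxia peaks per normoxia peak were in ALKBH4, a dioxygenase of the ALKBH family, with 1 and 4, in MAT2A, the methyl donor synthase whose RNA METTL16 methylates, with 1 and 4, and in RBM15, an RNA-binding subunit of the METTL3 complex, with 3 and 9. The fewest were in TRMT112, the activator of several methyltransferases including N6AMT1 and METTL5, with 8 normoxia and 6 hypoxia peaks, and in PCIF1, which methylates the adenosine next to the messenger RNA cap, with 4 and 3. RBM15B with 3 and 3 and YTHDC2 with 5 and 5 tied for the next place. At the start, ALKBH4 had 76 reads in normoxia and 130 in hypoxia, MAT2A 225 and 288, and RBM15 126 and 196. The genes with fewer hypoxia peaks also had more reads at the start in hypoxia: TRMT112 had 80 and 133, and PCIF1 had 223 and 341.

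The promoters of the 10 genes were searched on both strands for the hypoxia response element cores ACGTG and GCGTG in RefSeq windows of 300 bases, from 250 before the start to 50 after it. METTL3 alone held ACGTG, against 23.1% of 22156 promoters. GCGTG was present in 7 genes (METTL4, METTL3, METTL16, N6AMT1, ALKBH5, WTAP and ZC3H13), against 43.0% of promoters, and 54.7% held either. METTL14, ALKBH1 and FTO held neither. The letters CCGGAAG, which ETS family factors bind, were present in METTL3, METTL14, ALKBH1 and ZC3H13, against 12.8% of promoters. CG pairs numbered from 13 in METTL14 to 39 in ALKBH5, with 26 in METTL4 and a median of 21 over all promoters. A match describes the letters in this window and is not evidence of a bound site.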

How the data were processed

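Libraries of FaDu cells were sequenced from 1 end to 75 bp (labels' protocols), and MACS2, SICER and the build hg38 are named in the submitters' processing notes. The sources used here do not give tool versions, settings or whether a control was used. Peaks were called by the authors for each sample alone, as shown by their 1 list per library. A deposited row gives a peak's position, summit offset, score, fold enrichment ratio, and its p-value and q-value as −log10. The score deposited by the authors is the −log10 p-value times 10 without decimals (100% of normoxia and 99.998% of hypoxia peaks) and was not used further. A q-value above 0.05 was present in 144 normoxia and 29 hypoxia deposited peaks.

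Summit pileup and local background were solved from the deposited fold and p-value, taking the fold as (pileup + 1) / (background + 1) and p as a Poisson tail. Pileups were whole within 0.02 reads for 100% of peaks in both lists. Read totals are not stated. Pileups were not scaled for depth or fragment length, and reads without molecular identifiers are not independent molecules.

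Gene spans, starts and promoter sequences were from RefSeq tables on GRCh38.p14, the assembly that hg38 names. Starts were known for 15813 of 19974 protein-coding genes. Peaks overlapped when they shared at least 1 bp. The peak with the highest −log10 q-value within 1000 bp of the start represented a start. The scripts, in Python 3.11.15 with numpy 2.4.6, pandas 2.3.3 and scipy 1.17.1, were tested on simulated peaks.

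The 10 genes are named whatever their values. The neighbours named have a span that reaches into a member's window, but not every such neighbour is named. Members of the wider set were named by the most and fewest hypoxia peaks per normoxia peak. Members and lists were chosen with earlier results of these data known. The pileup comparison, the pairs of peaks and the promoter search were added after the lists were seen. Alternatives were the peak threshold, equal list length, the window, the overlap rule, joining peaks within 500 bp, the choice of start peak and leaving out FTO and METTL16.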

Additional observations from a re-analysis of the deposited data

How the results depend on the processing

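Of 59 values recomputed under other settings, 32 stayed within their interval or within 1.5 times, 19 moved, and 8 belonged to the 4 comparisons of the libraries that turned in direction, all at equal list length. All 10 members had a start peak in both libraries under every setting tried. With strong peaks alone, the windows held 22 normoxia and 32 hypoxia peaks, of which 86.4% and 59.4% overlapped the other list, with median widths of 771 and 560 bp. METTL4 then had 1 peak in each library, and 4 members had more hypoxia than normoxia peaks, N6AMT1 had fewer, and the rest had equal numbers. With the hypoxia list limited by q-value to the length of the normoxia list, the windows held 86 normoxia and 83 hypoxia peaks, with median widths of 369 and 406 bp, of which 54.7% and 56.6% were overlapped. This cut kept every weak normoxia peak, so the lists had unlike thresholds. METTL4 then had 2 normoxia peaks and 1 hypoxia peak, and 5 members had more hypoxia peaks. Hypoxia peaks thus outnumbered normoxia peaks in all 10 only with the weak hypoxia peaks included. All-gene shares were not computed for either cut, so these counts of members cannot be set against other genes. METTL4 had 1 normoxia peak in the gene span alone. With 50 kb on either side, the windows held 132 normoxia and 284 hypoxia peaks, and METTL4 had 9 and 13. Under 50% reciprocal overlap 55.8% of normoxia peaks were shared. Without FTO and METTL16, a setting added after the data were seen, 83.3% of normoxia peaks were shared and median widths were 476.5 and 317 bp. Under the 3 other choices of start peak, 8 of 10 members stayed below the median ratio of all genes, with member medians of 1.14 to 1.17. No paired analysis was possible because each condition had 1 library. The weakest peaks held 11 reads at the summit, and read totals are not stated. Copy number, fragment length and antibody efficiency could not be separated from the condition.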
